A study of Rattus norvegicus with 6 samples.

Results

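Atpaf1 encodes ATP synthase mitochondrial F1 complex assembly factor 1. Its transcripts were examined in whole brain RNA of SHR and BNLx rats. The gene was found as the locus of the deposited annotation whose reference gene name is Atpaf1, STRG.21575. This is 1 of 24746 annotated loci. All 4 of its isoforms, of 64526 annotated, were used, with their exon rows. The gene was singled out because its isoforms changed places between these strains in these data. The isoform values, shares and gene total below are therefore descriptions of the same contrast, with no test.

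ATP synthase makes most of the ATP of a neuron at the inner mitochondrial membrane. The catalytic head of the enzyme, F1, is a ring of alternating alpha and beta subunits around a central stalk. ATPAF1 is a chaperone of this step: the protein, known best from its yeast counterpart Atp11, holds free beta subunits until they join the ring, and ATPAF2 does the same for the alpha subunits.

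The SHR group was 3 naive male rats of the inbred strain SHR/OlaIpcvPrin, the spontaneously hypertensive rat. The BNLx group was 3 naive male rats of the inbred strain BN-Lx/CubPrin, a congenic strain on the Brown Norway background that was used as the reference. No animal was treated, and ages were not given in the sources used here. PolyA RNA of the whole brain was sequenced without strand information as paired reads of 100 bases, 1 library per rat. Whole brain RNA mixes all cell types, so a change in the number of cells of a type and a change in RNA per cell cannot be told apart.

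Summed expected counts per library ran from 21745966 to 41333078 in SHR and from 11747048 to 32826625 in BNLx. An expected count is the number of fragments that RSEM assigned to an isoform, and CPM is that count relative to library size after TMM scaling. SHR replicate 1 and BNLx replicate 3 were unlike the remaining libraries of their strains. The chi-square per degree of freedom over loci was 10.47 between SHR replicates 2 and 3 and 11.97 between BNLx replicates 1 and 2, but 143.09 to 154.41 for pairs with SHR replicate 1 and 84.23 to 107.16 for pairs with BNLx replicate 3. Of 27 listed cell type markers, 10 have a named locus, and all 10 (of neurons, astrocytes, oligodendrocytes and microglia) had at least 18.6 TPM in every library. The remaining listed markers, which include all those of blood, choroid plexus, endothelium, liver and muscle, have no locus of that name, so these types could not be checked. Over all loci, 147 of 14471 tested genes (1.02%) differed between strains at an adjusted p of 0.05 (edgeR quasi-likelihood test, Benjamini-Hochberg), 73 higher and 74 lower in SHR. This count was 12 without SHR replicate 2, 36 without SHR replicate 3, 14 without BNLx replicate 1 and 38 without BNLx replicate 2. Without SHR replicate 1 and BNLx replicate 3 together, a choice made after seeing the data, it was 4172. At the isoform level 324 of 32348 (1.00%) passed an unadjusted p of 0.001, and isoform usage differed in 338 of 7742 loci (4.37%) by the F test of edgeR's diffSpliceDGE.

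The 4 isoforms have the same start and the same 3′ end on the plus strand of chromosome 5 (rn6), from base 134641608 to base 134667084, a span of 25477 bases. All came from the StringTie assembly, and aptardi, the authors' program for added 3′ ends, gave this locus none. STRG.21575.4 is the Ensembl transcript ENSRNOT00000087197. It has 9 exons and 4278 bases, of which the undivided last exon, bases 134663836 to 134667084, makes up 3249 bases or 75.9%. STRG.21575.2 has the same exons except that a gap of 101 bases, from base 134666716 to base 134666816, divides the last exon into 2880 bases before the gap and 268 after it, so that it has 10 exons and 4177 bases. The rest of both isoforms is identical, and the gap is 2.36% of the bases of STRG.21575.4. Only fragments that reach this stretch tell the pair apart.

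STRG.21575.3 (10 exons, 4161 bases) has the 101-base gap and also an exon 2 that ends 16 bases earlier, at base 134644719 in place of 134644735, with 93 bases in place of 109. The 16 bases are not a multiple of 3. STRG.21575.1 (11 exons, 4143 bases) has the 101-base gap and a gap of 34 bases, from base 134665316 to base 134665349. The annotation has no isoform that joins the shorter exon 2 to an undivided last exon, and none that carries the 34-base gap alone. It marks exons but neither coding sequence nor UTR. No genome sequence was used here, so the bases in and beside each gap were not examined in either strain. Among 180618 distinct introns of the annotation the median length was 1441 bases. Introns of 101 bases or fewer were 5.82% of them and introns of 34 bases or fewer were 0.143%.

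**Figure D1:**
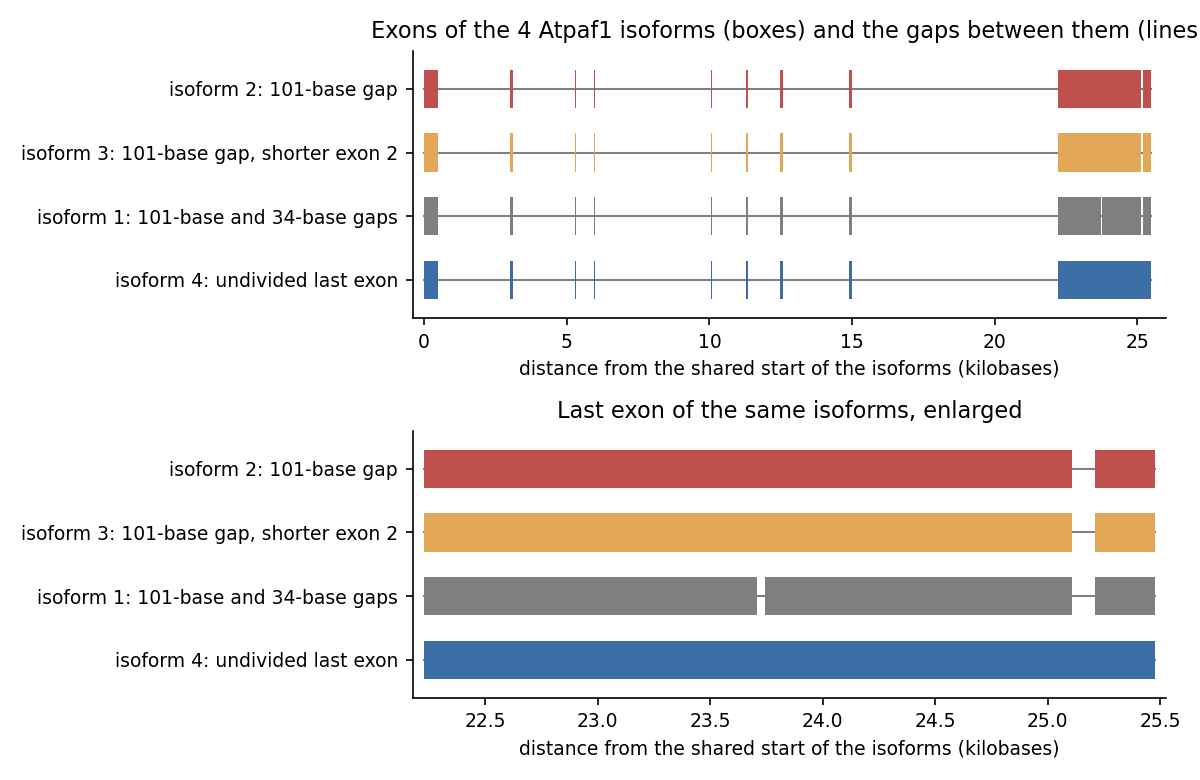
Exons (boxes) of the 4 Atpaf1 isoforms, each isoform on a row of its own, against distance from their shared start in kilobases; the lower panel enlarges the last exon. The isoforms with the 101-base gap lie above the isoform with the undivided last exon, and the gap starts 2880 bases into that exon.

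The main isoform was a different one in each strain. STRG.21575.2, divided by the 101-base gap, held 90.53%, 89.54% and 90.35% of the Atpaf1 counts in SHR replicates 1 to 3 and was at 0 in every BNLx library. It made up 90.1 ± 0.529% in SHR (SD, n = 3). At the counts of this locus, a count of 0 allows a share of up to 0.152%, 0.361% and 0.221% in BNLx replicates 1 to 3. Intervals and limits of this kind cover counting error only, not the error of assigning fragments to isoforms. They use all counts of the locus, though only fragments at a differing stretch tell isoforms apart, so they understate the uncertainty.

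STRG.21575.4, with the undivided last exon, held 0.73%, 0.70% and 0.77% of the counts in SHR, against 97.52%, 100% and 94.19% in BNLx. The means were 0.733 ± 0.0333% in SHR and 97.2 ± 2.92% in BNLx (SD, n = 3 each). The lowest share of any BNLx library had a 95% Wilson interval of 92.8% to 95.3%, and the highest of any SHR library one of 0.445% to 1.32%. The strains did not overlap for either isoform, and no library of one strain came near the shares of the other. Of all 32348 isoforms past the filter, 16.5% had CPM values that did not overlap between strains. Since Atpaf1 was chosen on this contrast, nothing is read from its place among them.

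The isoforms that lack the 101 bases held, as a sum, 99.27%, 99.3% and 99.23% of the counts in SHR, against 2.48%, 0% and 5.81% in BNLx. The SD was 0.0333 percentage points in SHR and 2.92 percentage points in BNLx. SHR replicate 1, one of the libraries that stand apart, had shares like those of the other SHR rats. BNLx replicate 3, the other such library, had the largest share of these isoforms among the BNLx rats. In BNLx these shares came from STRG.21575.3 and STRG.21575.1 alone, which differ elsewhere as well. They do not by themselves show that BNLx transcripts lacked the 101 bases. TPM is abundance within a library, corrected for length. The shares of TPM were within 0.16 percentage points of the shares of counts in every library and isoform.

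**Figure D2:**
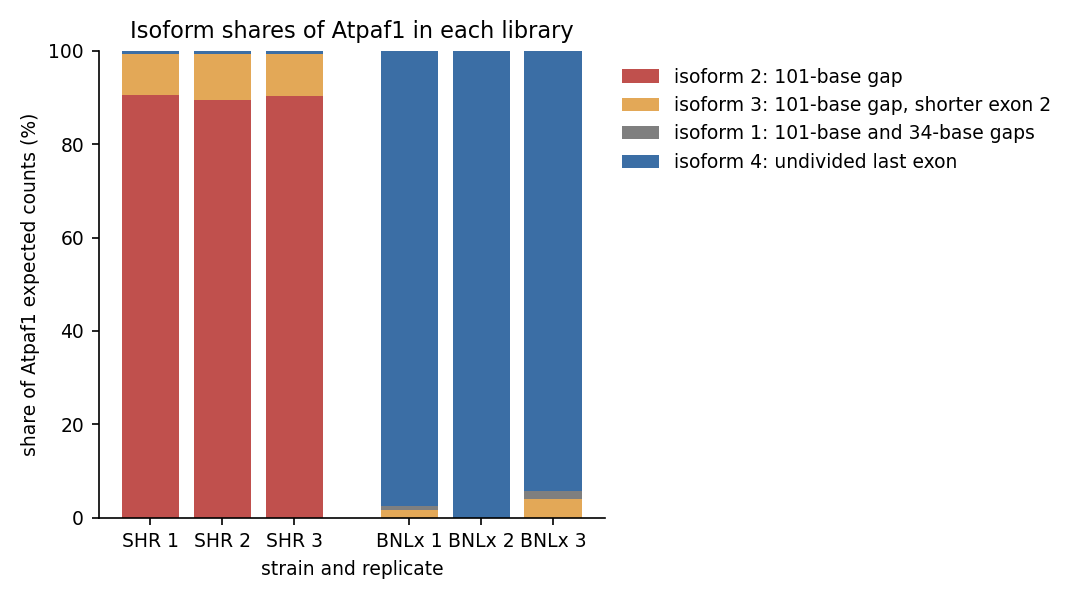
Share of the Atpaf1 expected counts (%) held by each of the 4 isoforms in each library, SHR on the left and BNLx on the right. Isoform 2 (STRG.21575.2) fills 89.54% to 90.53% of each SHR bar, and isoform 4 (STRG.21575.4) fills 94.19% to 100% of each BNLx bar.

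In CPM, STRG.21575.2 was at 64.73, 69.01 and 67.66 in SHR and at 0 in each BNLx library. With a floor of 3 counts per BNLx library in place of 0, the ratio of SHR to BNLx was 340. The chosen floor sets this ratio. Only fragments at the differing stretch can show the isoform, so the ratio is not a lower bound. STRG.21575.4 was at 0.52, 0.54 and 0.57 CPM in SHR, against 60.96, 72.43 and 101.12 CPM in BNLx, so that the log2 ratio of the means was -7.16. The SHR values rest on 21.89, 11.35 and 12.51 expected counts, against 1923.87, 832.15 and 1281.38 in BNLx. In TPM, the main isoform of SHR averaged 35.9 ± 3.15 in SHR and the main isoform of BNLx averaged 38.8 ± 12.4 in BNLx (SD, n = 3 each).

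The remaining isoforms were low. STRG.21575.3, with the shorter exon 2, held 8.74%, 9.76% and 8.88% of the counts in SHR, against 1.76%, 0% and 4.09% in BNLx. It averaged 6.81 ± 0.651 CPM in SHR and 1.83 ± 2.28 CPM in BNLx (SD, n = 3 each), and its 3 SHR values were above its 3 BNLx values. The log2 fold change of these means was 1.9, and 3.63 without BNLx replicate 3, so that library sets much of the BNLx mean. Set against STRG.21575.2, with which it shares the last exon, it took 9.2 ± 0.555% of their summed counts in SHR (SD, n = 3). In BNLx, where STRG.21575.2 was at 0, all of the sum was STRG.21575.3 in replicates 1 and 3 (34.64 and 55.58 expected counts). BNLx replicate 2 had 0 counts of both, so no ratio can be formed there.

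STRG.21575.1, with both gaps, was at 0 in every SHR library and at 14.24, 0 and 23.49 expected counts in BNLx replicates 1 to 3, and did not pass the filter on low counts. In BNLx the isoforms with the 101-base gap thus had counts only where they carried another difference as well, the shorter exon 2 or the 34-base gap. The annotation has neither of these without the 101-base gap. A fragment that showed either one would thus be assigned to an isoform with that gap. Whether such BNLx transcripts themselves lacked the 101 bases was not tested. BNLx replicate 2, which had none of them, had the fewest counts at the locus (832.15). Its limit of 0.361% for a count of 0 is below the shares of both isoforms in the other BNLx libraries. That limit uses all counts of the locus, though only fragments at the end of exon 2 or at the 34-base gap can show these isoforms. It therefore does not show that BNLx replicate 2 differs from the other BNLx libraries.

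**Figure D3:**
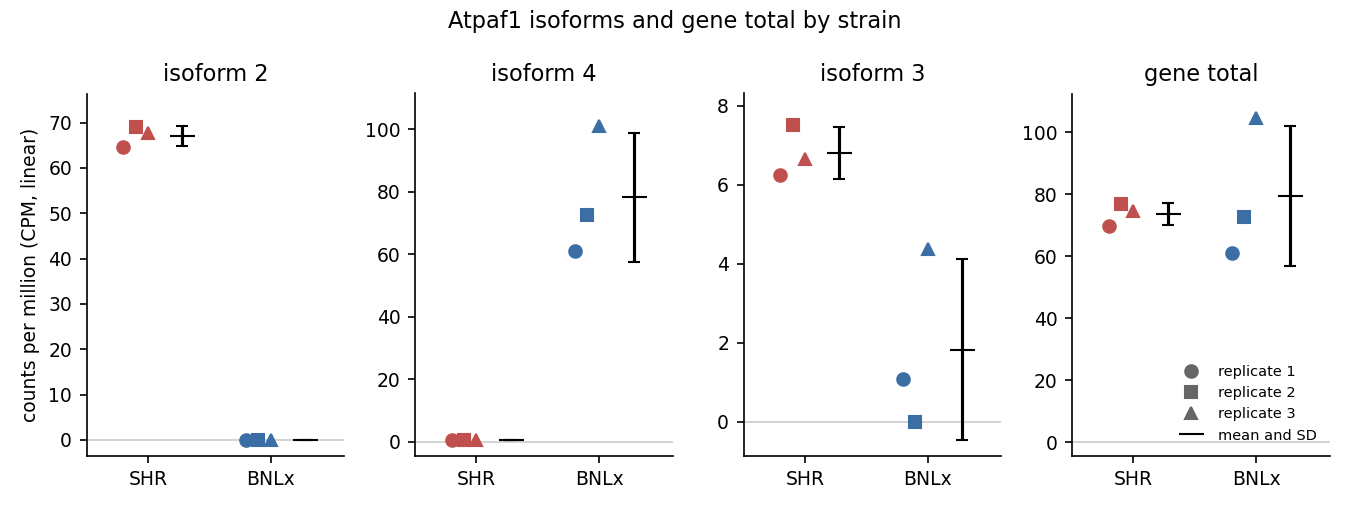
CPM (linear scale) of 3 Atpaf1 isoforms and of the gene total in each library, SHR left of BNLx, with the mean and SD beside the points (n = 3 each). Isoforms 2 and 4 (STRG.21575.2 and STRG.21575.4) separate the strains, at means of 67.1 and 0.546 CPM in SHR and 0 and 78.2 CPM in BNLx, and the gene totals overlap.

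With all libraries, the total of the gene did not separate the strains. Atpaf1 was at 69.7, 76.7 and 74.7 CPM in SHR, against 61.1, 72.5 and 104.7 CPM in BNLx. The means were 73.7 ± 3.6 CPM in SHR and 79.5 ± 22.6 CPM in BNLx (SD, n = 3 each), and their log2 fold change was -0.11. The range of SHR lay inside that of BNLx. In TPM the means were 39.9 ± 3.69 in SHR and 40.2 ± 13.9 in BNLx (SD, n = 3 each). In every library the gene lay between the 61.8th and the 76.4th percentile of TPM among tested genes.

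The sign of this small difference depended on how the values were scaled and averaged, and on BNLx replicate 3, the highest library. With all libraries, the log2 fold change of the mean TPM was -0.01, and the difference of the means of log2(TPM + 1) was 0.04. Without BNLx replicate 3 the log2 fold change was 0.14 in CPM and 0.3 in TPM, and in TPM the strains then no longer overlapped. Without SHR replicate 1 as well it was 0.18 in CPM, with 75.7 ± 1.44 CPM in SHR and 66.8 ± 8.08 CPM in BNLx (SD, n = 2 each), and the strains no longer overlapped in CPM either. The 5 named genes whose log2 CPM followed the Atpaf1 total most closely over the 6 libraries had Pearson correlations of 0.975 to 0.985. They were Rbms1 (an RNA-binding protein), Ireb2 (an iron regulatory protein), Irs1 (an insulin receptor substrate), Bend3 (a BEN domain protein of chromatin) and Xiap (an inhibitor of caspases). Each of them, too, was highest in BNLx replicate 3, and the part of that library in these correlations was not tested.

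The partners of ATPAF1 were read from the gene test over all loci. Of 19 listed subunits of ATP synthase and its regulator, 9 have a locus of that name, and all 9 were tested. None passed an adjusted p of 0.05, against 1.02% of all genes. Their log2 fold changes ran from -0.25 to -0.07 with a median of -0.15, against a median of 0.0 over all tested genes, and the lowest adjusted p was 0.617 (edgeR). The 3 with the lowest p were Atp5pb, of the peripheral stalk, Atp5f1d, of the central stalk, and Atp5if1, the inhibitor of ATP hydrolysis. Atp5pb was at 156 ± 23.9 CPM in SHR and 186 ± 10.1 CPM in BNLx (SD, n = 3 each). Atp5f1d was at 127 ± 12.7 CPM in SHR and 148 ± 21.5 CPM in BNLx, and Atp5if1 at 70.7 ± 7.62 CPM in SHR and 78.3 ± 9.96 CPM in BNLx. Atp5f1b, the beta subunit that ATPAF1 binds, was at 1100, 912 and 917 CPM in SHR, against 1120, 1080 and 1020 CPM in BNLx. Its log2 fold change was -0.14 with a standard error of 0.14. The Atp5pb and Atp5f1b loci also hold other named genes.

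Of 5 further assembly factors of ATP synthase, Tmem70 and Fmc1 were tested, and Atpaf2, Tmem242 and Oxa1l have no locus of that name. Tmem70, which aids the assembly of the membrane part, was at 29.7, 21.5 and 23.8 CPM in SHR, against 29.4, 28.6 and 31.5 CPM in BNLx (log2 fold change -0.25, standard error 0.15, adjusted p = 0.648 from edgeR). Fmc1, known in yeast as a helper of F1 assembly, was at 233, 270 and 259 CPM in SHR, against 264, 304 and 272 CPM in BNLx (log2 fold change -0.14, adjusted p = 0.761 from edgeR). The Fmc1 locus also holds Luc7l2, Ubn2 and another named gene, and its values are those of the whole locus. The strains overlapped for both.

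Among 45 listed assembly factors of complexes I to IV, 19 were tested and none passed, with a median log2 fold change of -0.14 and a range of -0.38 to 0.32. The strains did not overlap for 8 of the 19, against 17.4% of all tested genes: Ndufaf1, Ndufaf4, Ndufaf5, Ndufaf7 and Cox16 had lower values in SHR, and Acad9, Foxred1 and Coa5 higher ones. The Foxred1 and Cox16 loci hold other named genes as well. The lowest p of the list belonged to Acad9, which aids the assembly of complex I, at 49.3 ± 3.73 CPM in SHR and 39.4 ± 2.76 CPM in BNLx (SD, n = 3 each; log2 fold change 0.32, adjusted p = 0.372 from edgeR). Ndufaf4, also of complex I, was at 28.8 ± 2.8 CPM in SHR and 36.5 ± 2.36 CPM in BNLx (adjusted p = 0.396 from edgeR). Ndufaf7, a methyltransferase of the same pathway, was at 28.1 ± 2.46 CPM in SHR and 34.6 ± 2.07 CPM in BNLx (adjusted p = 0.454 from edgeR).

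These counts of 0 over the lists depended on the libraries that stand apart. At an unadjusted p under 0.05 in edgeR, 4 of the 30 tested list genes passed, against 10.2% of all tested genes. All 4 were among the 19 tested assembly factors of complexes I to IV, and no gene of the other lists passed. Within that list the share was thus above 10.2%, and this excess was not tested. DESeq2 and limma called none at an adjusted p of 0.05. Without SHR replicate 1 and BNLx replicate 3 together, 15 of the 30 passed in edgeR, all lower in SHR. That choice was made after seeing the data and left 2 rats per strain. Leaving out the library least like the others of each strain also lowers the spread within strains, so these p-values are likely too small. Under that setting 4172 of 14471 genes (28.8%) passed over all loci, 2181 (15.1%) higher and 1991 (13.8%) lower in SHR. They included Atp5f1b (log2 fold change -0.27), Atp5pb (-0.38), Atp5f1d (-0.41), Atp5f1e (-0.68), Atp5mc2 (-0.41), Atp5mc3 (-0.36), Atp5if1 (-0.33) and Tmem70 (-0.36).

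Atpaf1 lies among 19 other named loci within 500000 bases, 16 of which were tested. None of the 16 passed in edgeR (lowest unadjusted p 0.11, lowest adjusted p 0.611), against 1.02% of all tested genes. DESeq2 and limma called none of them either. With a share that low over all genes, a count of 0 among 16 says little about this region. In each of the 16 the strains overlapped, while 17.4% of all tested genes did not overlap. The log2 fold changes ran from -0.4 to 0.38, with 8 above and 8 below 0. Efcab14, an EF-hand protein whose locus ends 7673 bases before Atpaf1, had the lowest adjusted p, with 77.7 ± 6.04 CPM in SHR and 102 ± 29.1 CPM in BNLx (SD, n = 3 each). Its highest value, 134 CPM, was in BNLx replicate 3, the library with the highest Atpaf1 total. On the other side, Mob3c, a member of the MOB family of kinase adaptors, had a log2 fold change of 0.19, and Mknk1, a kinase that acts on a translation initiation factor, one of -0.01.

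Farther out, the fitted log2 fold changes were 0.08 for Nsun4 (a methyltransferase of mitochondrial ribosomal RNA), 0.08 for Pomgnt1 (a glycosyltransferase), 0.13 for Lurap1, 0.19 for Lrrc41, -0.23 for Tspan1 (a tetraspanin), -0.17 for Pik3r3 (a regulatory subunit of PI3 kinase) and -0.08 for Mast2 (a kinase). Uqcrh, a subunit of respiratory complex III whose locus begins 251960 bases after Atpaf1, had one of -0.22. Uqcrh was the only one of the 16 that passed without SHR replicate 1 and BNLx replicate 3 (log2 fold change -0.5, adjusted p = 0.0102 from edgeR), against 28.8% of all tested genes under that setting. LOC103690007 had a log2 fold change of -0.32. Faah, which breaks down anandamide (0.1), and Faahl (-0.22) lie on the strand opposite to Atpaf1. AABR07049722.1 and AC110367.1, which lie within their bounds on the other strand, had identical counts in all libraries (0.38 each). The values of that pair are uncertain for that reason, and the division of reads without strand between overlapping loci is uncertain as well. Lrrc41 and Lurap1, and Tspan1 and Pik3r3, also overlap on opposite strands. Cyp4b1 and Tex38 were below 1 CPM in every library. Dmbx1, a homeobox gene, was at 9.83 CPM in BNLx replicate 3 and at most 0.0948 CPM in the other libraries. Those 3 were not tested.

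**Figure D4:**
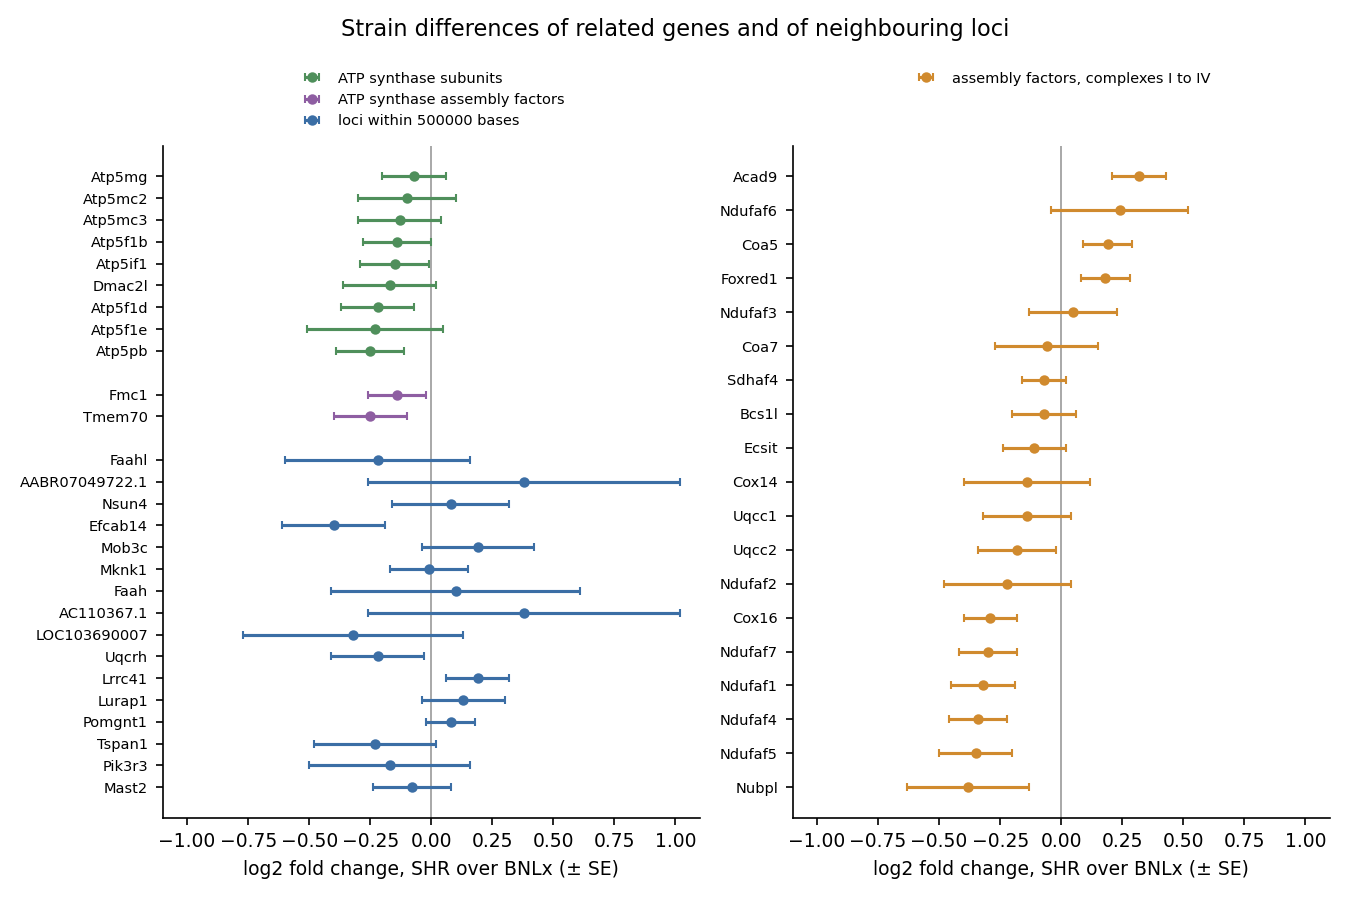
Fitted log2 fold change, SHR over BNLx, with its standard error for the tested ATP synthase subunits, ATP synthase assembly factors and loci within 500000 bases of Atpaf1 (left, the loci in order of position) and for assembly factors of complexes I to IV (right). The ATP synthase subunits lie between -0.25 and -0.07, and no gene shown passed an adjusted p of 0.05.

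The same kind of exchange was looked for in other genes. Among 2836 named single-gene loci in which at least 2 isoforms had passed the filter, the shares of the isoform that gained most and the isoform that lost most in SHR were compared with those of Atpaf1 over the 6 libraries. The closest were Ugcg, the ceramide glucosyltransferase (root mean square difference 2.9 percentage points), Sdc4, a heparan sulfate proteoglycan (4.5), Chga, chromogranin A of secretory granules (5.1), Zfp161, a zinc finger protein (5.1), and Irak3, a brake on Toll-like receptor signalling (7.4). In Ugcg the share of the gaining isoform was 92.1 ± 4.93% for SHR rats and 3.26 ± 0.836% for BNLx rats (SD, n = 3 each), with a fitted log2 fold change of the gene total of -0.1. In Ugcg, Sdc4, Chga and Zfp161 the gaining isoform differed from the losing one by a gap inside an exon, as in Atpaf1. In Irak3 it differed in the position of the 3′ end.

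After these values had been seen, all pairs of isoforms of a locus were collected that share their start and end and differ by 1 gap inside 1 exon. With at least 50 summed counts in 2 of the 3 libraries of each strain, there were 2122 pairs in 1558 loci, and the share of the divided isoform in the sum of the pair was computed. In 17 pairs (0.801%), Atpaf1 among them, this share was at least 90% in every SHR library and at most 10% in every BNLx library, and in 3 pairs (0.141%) the reverse held. Without BNLx replicate 2 the count of 3 was 5, and without SHR replicate 1 and BNLx replicate 3 together the counts were 22 and 6. Leaving out libraries could only keep or raise these counts, since every library had to pass. The pairs are not independent, since 1 locus can give several.

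Nearly all such pairs had short gaps. Of 410 pairs with a gap of 150 bases or fewer, 16 had the divided isoform in SHR and 3 had it in BNLx. Of 1712 pairs with a longer gap, 1 had it in SHR and 0 in BNLx. Within short gaps of a last exon, like that of Atpaf1, 12 of 113 pairs had the divided isoform in SHR and 1 had it in BNLx. In last exons, the SHR pairs besides Atpaf1 included Sdc4 (28 bases), Ugcg (40 bases) and Pja2, a ubiquitin ligase (28 bases). Gabbr2, a subunit of the metabotropic GABA receptor, gave pairs with gaps of 20 and 22 bases, also in the last exon. The SHR pair of Nap1l3 on the X chromosome (24 bases) lay in the only exon of the undivided isoform. The BNLx pairs included Nrbp2, a pseudokinase (95 bases, in an internal exon). The gap of Atpaf1 was longer than those of most SHR pairs, with 2 longer ones among the 17. The reads of each strain had been aligned to a genome of that strain before assembly, and which genome sequence served for RSEM is not given in the sources used here. The part of that step in these differences was not tested.

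**Figure D5:**
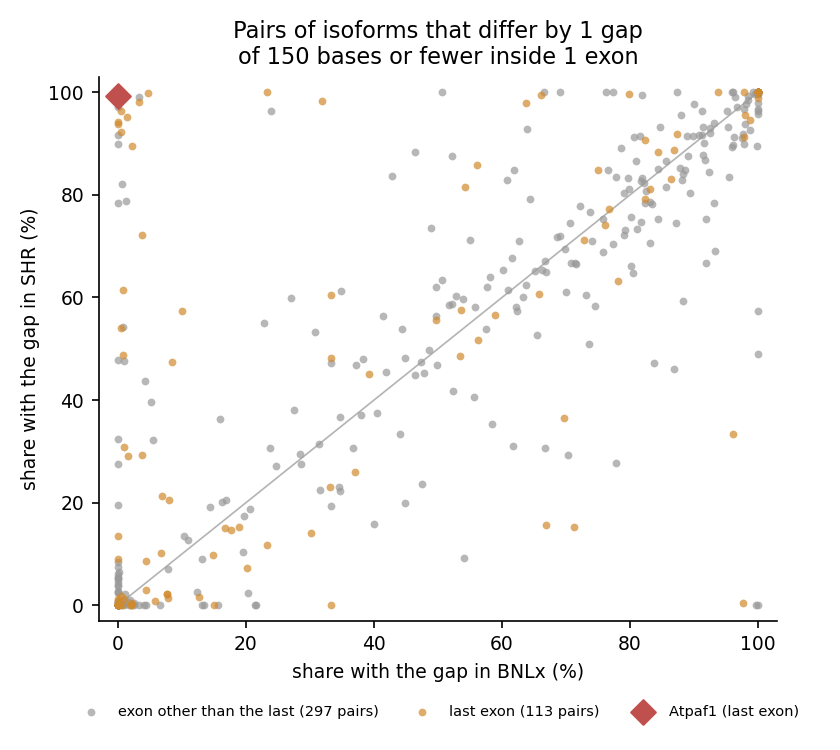
Pairs of isoforms that differ by 1 gap of 150 bases or fewer inside 1 exon; each point gives the mean share of the divided isoform in SHR (vertical, %) against BNLx (horizontal, %), with the line of equal shares. Atpaf1, at 99.19% in SHR and 0% in BNLx, lies in the upper left corner with the other pairs divided in SHR.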

How the data were processed

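Per the methods and labels, the authors trimmed reads (cutadapt) and aligned those of each strain with HISAT2 to a strain-specific genome derived from rn6. Transcripts of the pooled alignments were assembled by StringTie 1.3.5 with Ensembl as guide, 3′ ends were added by aptardi, and RSEM quantified isoforms and loci. The deposited values are expected counts, not normalized, and TPM, which RSEM scales per library. The deposited isoform percent was not used.

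Expected counts were rounded and fitted with edgeR 4.0.16 (R 4.3.3; TMM, quasi-likelihood, two-sided, strain as the only term), for features that reached 50 counts in 2 of 3 replicates in either strain. Genes were called at an adjusted p of 0.05, isoforms at an unadjusted p of 0.001. DESeq2 1.42.0 and limma 3.58.1 on log2(TPM + 1) and log2(TPM + 0.1) were alternatives, with other size factors, no filter, a replicate block and each library left out. Scripts were tested on simulated data.

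The gene, its isoforms and all lists were chosen with earlier results of these data known. The named genes are all isoforms of Atpaf1, the ATP synthase assembly factors, the 3 lowest p of each other list (none passed), every locus within 500000 bases and the 5 genes most like Atpaf1 in total and in shares; genes named beyond these were chosen after their values were seen. Folds against 0 use a floor of 3 counts per library. The labels name 3 lanes, with 3, 3 and 6 libraries; their assignment is not given in the sources used here, and the part of lane in strain differences was not tested. The labels name a different sequencer model from the methods.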

Additional observations from a re-analysis of the deposited data

How the results depend on the processing

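The isoform shares of Atpaf1 moved little: the SHR minus BNLx difference of STRG.21575.2 was 89.95 to 90.44 percentage points over the libraries left out in turn, and that of STRG.21575.4 -98.03 to -95.12. Sums over 3′ ends changed nothing, since the locus has 1 end. On the log2(TPM + 1) scale, which understates large changes, the log2 difference was 5.2 for STRG.21575.2 and -4.92 for STRG.21575.4. On the log2(TPM + 0.1) scale these differences were 8.49 and -6.63. The log2 ratios in CPM were 8.41, a value set by the floor, and -7.16. Leaving out libraries gave 8.08 to 8.66 for STRG.21575.2 in CPM, with the floor of the BNLx libraries that remained. Without SHR replicate 1 and BNLx replicate 3 it was 8.58. The log2 fold change of the gene total lay between -0.27 and 0.14 over the libraries left out, and was 0.04 on both log2 TPM scales.

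Counts over all features moved far more. DESeq2 called 543 genes and 1166 isoforms, limma on log2(TPM + 1) 496 isoforms, and limma on voom weights 172 usage loci. Over the 6 libraries left out in turn there were 12 to 156 genes, 183 to 400 isoforms and 204 to 577 usage loci. Without both libraries that stand apart (left out after the data were seen), edgeR called 4172 genes, 944 isoforms, 1781 usage loci, 15 list genes and 1 neighbour. With the other alternatives, list genes and neighbours called stayed at 0. Limits of 80% and 20% gave 23 pairs divided in SHR and 4 in BNLx, and leaving out libraries gave 18 to 20 and 3 to 5. Every library must pass the limits, so looser limits or fewer libraries could only keep or raise these counts.

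Whether equal replicate numbers pair the rats could not be settled. Deviations from the strain mean correlated at -0.04, 0.32 and -0.2 for equal numbers and at -0.33 to 0.25 for unequal ones. With 3 libraries per strain, 1 of them unlike the others, such deviations depend on each other and cannot decide it. With the replicate block, edgeR called 0 genes (1192 at an unadjusted p under 0.05) and 48 isoforms, and the Atpaf1 total had a log2 fold change of -0.07. The SHR values of STRG.21575.4 rest on 11.35 to 21.89 expected counts, so its share there is imprecise.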
